A study of Mus musculus with 10 samples.

Results

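The 40 genes described here encode enzymes of glycolysis, the pentose phosphate pathway and the citrate cycle together with a few of their regulators, and they were taken by name from the 22607 genes to which the deposited transcripts could be assigned. They were followed in 10 libraries of polyadenylated RNA from antigen-presenting cells. The mice were C57BL/6 wild types, 8 weeks old, for which the labels name no treatment. The libraries form 5 groups of 2. The groups are colonic MHCII+ cells, splenic MHCII+ cells, and the colonic CD11b+CD11c+, CD11b+ and CD11c+ cells, which are subsets defined by 2 integrins. Tissue and gate were read from abbreviated titles together with the design text of the series. The study set out to find genes that mark gut dendritic cells and mononuclear phagocytes. The labels name no gate beyond these surface markers, so B cells, granulocytes and other cells that carry the same markers could be included. Whether the 2 libraries of each group stem from different mice is not stated. The p-values therefore reflect library-to-library spread, which could be technical alone.

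Glycolysis splits glucose into pyruvate in the cytosol, with its main control points at hexokinase, phosphofructokinase and pyruvate kinase. Glucose 6-phosphate can instead enter the pentose phosphate pathway, whose oxidative branch yields NADPH for the phagocyte oxidase and for lipid synthesis. Pyruvate is reduced to lactate or passes through pyruvate dehydrogenase into the citrate cycle. In macrophages and dendritic cells, activation by microbial products is known to raise glycolysis, partly through the oxygen-regulated factor HIF-1, and to divert cis-aconitate into itaconate through the enzyme encoded by Acod1.

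Sequences are shown for the few members on which the results below turn. The promoters, 250 bases before to 50 after the start that RefSeq lists for each gene, are from RefSeq on build GRCm38.p6, which is the assembly of mm10. The RefSeq start can lie away from that of the GENCODE gene whose transcripts were counted, by 35 bases for Acod1, 0 for Hk2 and 4329 for Ldha. Acod1 and Hk2 are shown because they rose in several comparisons, and Ldha because it rose in one and fell in others. Capitals mark ACGTG or GCGTG on either strand, the core letters of the hypoxia response element. The palindrome CACGTG holds ACGTG on both strands and counts as 2 matches.
Acod1 promoter (chr14:103046762-103047061, plus strand): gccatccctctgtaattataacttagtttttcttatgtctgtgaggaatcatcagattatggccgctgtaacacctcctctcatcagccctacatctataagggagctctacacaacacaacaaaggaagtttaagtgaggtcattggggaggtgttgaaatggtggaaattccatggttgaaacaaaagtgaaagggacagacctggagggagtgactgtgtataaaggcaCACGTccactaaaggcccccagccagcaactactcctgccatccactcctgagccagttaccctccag
Hk2 promoter (chr6:82774405-82774704, minus strand): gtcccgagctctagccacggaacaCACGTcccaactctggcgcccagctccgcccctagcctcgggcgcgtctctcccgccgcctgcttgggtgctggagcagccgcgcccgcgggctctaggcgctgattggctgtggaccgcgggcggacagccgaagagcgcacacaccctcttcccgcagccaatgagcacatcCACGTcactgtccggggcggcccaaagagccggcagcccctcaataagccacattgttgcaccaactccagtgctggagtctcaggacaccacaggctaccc
Ldha promoter (chr7:46845554-46845853, plus strand): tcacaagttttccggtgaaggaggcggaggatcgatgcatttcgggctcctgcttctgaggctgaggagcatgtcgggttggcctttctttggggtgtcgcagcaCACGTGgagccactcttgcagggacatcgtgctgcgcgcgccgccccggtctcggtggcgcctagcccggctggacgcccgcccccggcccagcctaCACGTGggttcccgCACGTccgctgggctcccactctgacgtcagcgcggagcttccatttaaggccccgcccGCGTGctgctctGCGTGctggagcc
The letters occurred 1 time in the Acod1 promoter, 2 times in that of Hk2 and 7 times in that of Ldha. A promoter was listed for 39 of the 40 members, and 31 of these (79.5%) held at least 1 match. For each member the promoter nearest the GENCODE start was taken, which still lay 6492 bases from it for Hif1a and 27467 for Sucla2. Among all 32851 promoters of the same length the share was 43.8%. That set was not limited to 1 promoter per gene or to genes expressed here. The 2 shares are therefore not like for like, and no enrichment is read from them. A match is a description of letters, not of binding.

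Pkm, which encodes the pyruvate kinase of most tissues, uses one or the other of a pair of neighbouring exons. Both lie on the plus strand of mm10 chromosome 9 and hold 167 bases, of which 64 differ (61.7% identical). Capitals mark the bases that differ.
Pkm M1 exon (chr9:59675029-59675195): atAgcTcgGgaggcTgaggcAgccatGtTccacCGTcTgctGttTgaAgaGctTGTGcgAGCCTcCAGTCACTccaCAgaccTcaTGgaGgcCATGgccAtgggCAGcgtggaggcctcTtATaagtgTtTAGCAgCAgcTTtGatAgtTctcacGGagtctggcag
Pkm M2 exon (chr9:59675568-59675734): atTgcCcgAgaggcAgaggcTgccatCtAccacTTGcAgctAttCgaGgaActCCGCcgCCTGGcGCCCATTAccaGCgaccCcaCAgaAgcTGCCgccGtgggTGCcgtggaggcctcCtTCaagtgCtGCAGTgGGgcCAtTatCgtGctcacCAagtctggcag
Adult muscle uses M1, whose enzyme is constitutively active, and most proliferating and immune cells use M2, whose enzyme is allosterically regulated.

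Totals ranged from 12806139 to 41769042 estimated counts per library. Levels below are in CPM, counts scaled to a library total of 1000000 with TMM-adjusted library sizes, and were compared with edgeR's quasi-likelihood test with Benjamini-Hochberg adjustment over all genes tested. A gene was called at an adjusted p under 0.05. The 40 members all passed the count filter in both sets of libraries. Itgam, which encodes CD11b, had 694 and 793 CPM in the CD11b+CD11c+ libraries, 742 and 743 CPM in the CD11b+ libraries and 25.9 and 40.5 CPM in the CD11c+ libraries. Itgax, which encodes CD11c, followed the gates less closely, with 679 and 772 CPM in CD11b+CD11c+ cells, 491 and 557 CPM in CD11b+ cells and 784 and 946 CPM in CD11c+ cells. In CD11c+ cells the libraries stood apart in 10 macrophage markers, which summed to 475 CPM in library 1 and 3509 CPM in library 2, and in 7 T cell markers, at 631 and 244 CPM. The splenic MHCII+ libraries differed in stromal (163 and 317 CPM), eosinophil (79.3 and 164 CPM) and erythroid markers (405 and 942 CPM). Because these are bulk samples, fewer cells of a type and less RNA per cell cannot be told apart.

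In colonic MHCII+ cells, set against splenic MHCII+ cells, several glycolytic enzymes, much of the pyruvate dehydrogenase and citrate cycle group, Hif1a and Acod1 were higher. Lower were Hk3, Gpi1, Pfkfb3 and Pfkfb4 at the first steps of glycolysis, Ldhb, Pdk1, Mdh2, and G6pdx and Taldo1 of the pentose phosphate pathway. Of the 40 members, 21 were called higher, where 31.6% of all 15076 genes tested were, and 9 were called lower, where 28.7% of all genes were. In total 30 members passed, against 60.3% of all genes in either direction. The median log2 fold change was 0.36 over the members and 0.02 over all genes tested. At a change of at least 2-fold, 8 members were higher, where 22.3% of all genes were, and 3 were lower, where 14.2% were. The calls of Hk1, Gpi1, Pfkfb3, Gapdh, Sucla2, Mdh1 and Acly were each lost when at least 1 of the 4 libraries was left out.

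At the entry of glycolysis, Hk2, the inducible hexokinase, had 228 and 286 CPM in the colonic MHCII+ libraries and 98.2 and 104 CPM in the splenic ones. Hk3, a hexokinase typical of myeloid cells, had 58.3 and 65.2 CPM in colonic and 124 and 141 CPM in splenic cells. The 2 isozymes thus lay in opposite order in the 2 tissues, without overlap (Hk2 log2 fold change 1.34, SE 0.13, adjusted p = 0.00022; Hk3 log2 fold change -1.10, SE 0.11, adjusted p = 0.000266). Pfkp, the platelet-type phosphofructokinase, had 296 and 316 CPM in colonic and 96.9 and 96.2 CPM in splenic libraries (log2 fold change 1.66, SE 0.09, adjusted p = 2.3e-05). Pfkfb4, one of the enzymes that set fructose 2,6-bisphosphate, an activator of phosphofructokinase, had 14.9 and 11.7 CPM in colonic and 38.3 and 41.9 CPM in splenic libraries (log2 fold change -1.59, SE 0.16, adjusted p = 0.0003). Its relative Pfkfb3 was also lower in colonic cells, at 68.4 and 76.1 against 91.9 and 98.7 CPM (log2 fold change -0.40, SE 0.10, adjusted p = 0.0135). Among all genes tested, 31.6% were called higher and 28.7% lower. Of the 9 members at these steps, 4 were higher, 4 lower and 1, Pfkm, was not called. The fourth lower member, Gpi1, glucose 6-phosphate isomerase, changed least (log2 fold change -0.33).

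Of the 8 members from aldolase to pyruvate kinase, 5 were higher, where 31.6% of all genes were, and none lower, where 28.7% were. Tpi1, triosephosphate isomerase, had 168 and 164 CPM in colonic and 72.1 and 77.03 CPM in splenic libraries (log2 fold change 1.16, SE 0.09, adjusted p = 9e-05). Aldoc, the minor aldolase isozyme here, had 11.6 and 11.6 CPM in colonic and 4.93 and 4.96 CPM in splenic libraries (log2 fold change 1.23, SE 0.21, adjusted p = 0.00261). Pgk1, phosphoglycerate kinase, Aldoa and Gapdh rose by log2 fold changes of 0.90, 0.78 and 0.49. Pkm did not pass, with 759 and 789 CPM in colonic and 659 and 715 CPM in splenic cells (adjusted p = 0.18), and Pgam1 and Eno1 did not pass either (adjusted p = 0.94 and 0.597).

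The lactate dehydrogenase subunits moved apart. Ldha, the muscle-type subunit, had 515 and 509 CPM in colonic and 284 and 312 CPM in splenic libraries (log2 fold change 0.78, SE 0.10, adjusted p = 0.000706). Ldhb, the heart-type subunit, had 6.40 and 5.72 CPM in colonic and 11.2 and 11.9 CPM in splenic libraries (log2 fold change -0.93, SE 0.20, adjusted p = 0.0078). Hif1a, the oxygen-regulated subunit of HIF-1, had 377 and 335 CPM in colonic and 121 and 113 CPM in splenic libraries (log2 fold change 1.61, SE 0.11, adjusted p = 4.3e-05). Pdk1, a kinase that switches pyruvate dehydrogenase off, fell (log2 fold change -0.92, SE 0.16, adjusted p = 0.00294). In the pentose phosphate pathway, G6pdx, which encodes the enzyme of its first step, had 66.1 and 66.5 CPM in colonic and 131 and 153 CPM in splenic libraries (log2 fold change -1.10, SE 0.11, adjusted p = 0.000228). Taldo1, transaldolase, fell too (log2 fold change -0.60), while Pgd and Tkt did not pass (adjusted p = 0.0777 and 0.63).

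Of the 11 members of pyruvate dehydrogenase and the citrate cycle, 7 were higher in colonic cells and 1 was lower. Among all genes tested, 31.6% were called higher and 28.7% lower. Idh3a, a subunit of the NAD-linked isocitrate dehydrogenase, had 84.5 and 79.1 CPM in colonic and 40.4 and 38.01 CPM in splenic libraries (log2 fold change 1.06, SE 0.10, adjusted p = 0.000179). Suclg1, a subunit of succinyl-CoA ligase, had 110.5 and 119 CPM in colonic and 56.8 and 54.3 CPM in splenic libraries (log2 fold change 1.05, SE 0.09, adjusted p = 0.000158). Pdha1, Pdhb, Cs, Idh2 and Sucla2 rose by log2 fold changes between 0.33 and 0.79. The one that fell was Mdh2, mitochondrial malate dehydrogenase, with 244 and 266 CPM in colonic and 494 and 464 CPM in splenic libraries (log2 fold change -0.91, SE 0.10, adjusted p = 0.000379). Its cytosolic counterpart Mdh1 rose slightly (log2 fold change 0.39), as did Acly, which cleaves exported citrate (log2 fold change 0.39).

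Acod1, the itaconate-forming enzyme (ENSMUSG00000022126.6, mm10 chromosome 14, 103046977 to 103056573, plus strand), changed most of the 40. It had 175 and 125 CPM in colonic and 2.465 and 3.203 CPM in splenic libraries, so that the lower colonic library lay far above both splenic ones (log2 fold change 5.73, SE 0.23, adjusted p = 7.3e-06).

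**Figure D1:**
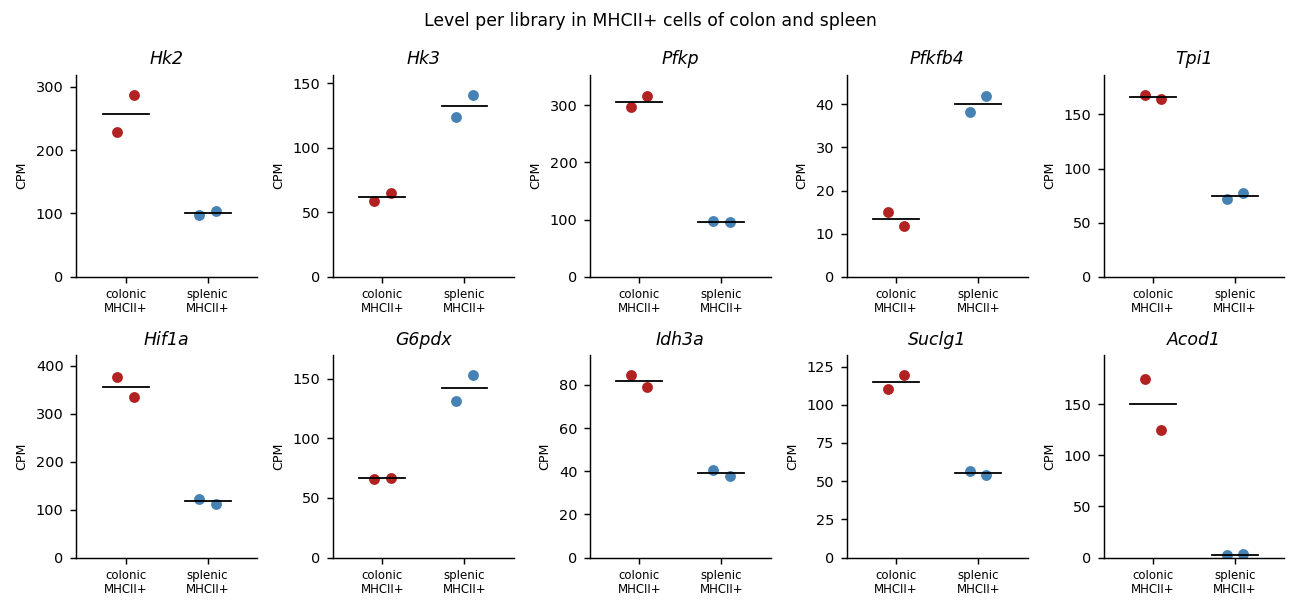
Level of 10 members in each library of colonic MHCII+ cells (left, red) and splenic MHCII+ cells (right, blue), in CPM on axes that start at 0. Points are libraries and bars are means of 2. Hk3, Pfkfb4 and G6pdx lie higher in spleen and the others higher in colon. All 10 shown are members called at a change of at least 2-fold, so a clear separation was to be had from the choice alone.

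Other genes of the same pathways were followed in lists. Their counts stand against 31.6% of all genes called higher and 28.7% called lower in colonic cells, and their medians against 0.02. Of 22 further glycolytic and glucose or lactate transport genes tested, 10 rose and 5 fell in colonic cells (median log2 fold change 0.19). Among those that rose were Fbp2, a fructose bisphosphatase (37.1 and 32.2 CPM in colonic, 0.0235 and 0.0907 CPM in splenic libraries, adjusted p = 6.6e-06), and Pklr, the liver and erythrocyte pyruvate kinase (16.5 and 16.8 CPM in colonic, 0.188 and 0.332 CPM in splenic libraries, adjusted p = 2.2e-05). Of 28 further pyruvate and citrate cycle genes, 17 rose and none fell (median 0.59). They include Pck1, the cytosolic gluconeogenic carboxykinase, at 123 and 126 CPM in colonic and 0.141 and 0.0907 CPM in splenic libraries (adjusted p = 1.7e-06), and Pcx, pyruvate carboxylase, with a log2 fold change of 3.41 (SE 0.24). Of 9 further pentose phosphate genes, none rose and 3 fell (H6pd, Prps2 and Rpe, log2 fold changes -1.16, -1.11 and -0.53), with a median of -0.53. Of 20 genes of the HIF axis, 14 rose and 1 fell (median 0.78). Vegfa, the endothelial growth factor, had 92.99 and 87.4 CPM in colonic and 10.99 and 8.79 CPM in splenic libraries (log2 fold change 3.19, SE 0.14, adjusted p = 1e-05). Epas1, which encodes HIF-2 alpha, rose by a log2 fold change of 4.37 (SE 0.35).

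Markers of other cells moved with this comparison. All 10 epithelial markers rose, and summed to 6154 and 5973 CPM in colonic and 23.6 and 28.5 CPM in splenic libraries. Of 10 macrophage markers 7 rose (4838 and 4930 CPM in colonic, 1848 and 2037 CPM in splenic libraries), and all 6 plasma cell markers rose (14569 and 16381 against 241 and 217 CPM). Of 8 neutrophil markers 7 fell (367 and 271 against 5805 and 8180 CPM) and all 6 B cell markers fell (74.03 and 70.5 against 1330 and 1419 CPM). Of 8 conventional dendritic cell markers 6 fell and 1 rose (779 and 825 CPM in colonic, 1662 and 1494 CPM in splenic libraries), and of 7 T cell markers 5 fell (138 and 192 against 305 and 374 CPM). Of 7 stromal markers 5 rose and 2 fell (1026 and 1310 against 163 and 317 CPM). No marker of these 8 lists was at 0 in all libraries of either group. Their part in the changes of the 40 members was not tested.

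Among the colonic subsets, CD11b+ cells were first set against CD11c+ cells. Hexokinase 2 and 3, the fructose 2,6-bisphosphate enzymes Pfkfb3 and Pfkfb4, G6pdx and Pgd of the pentose phosphate pathway, Idh1, Hif1a and Acod1 were higher in CD11b+ cells. Pfkp, Pgk1, Ldha, Mdh1 and some citrate cycle members were lower. Of the 40 members, 15 were called higher, where 27% of all 14225 genes tested were, and 10 were called lower, where 25% were. The 25 members called in either direction compare with 52% of all genes. The median log2 fold change was 0.07 over the members and -0.02 over all genes tested. The members' median was 0.0068 without CD11c+ library 1, 0.12 without CD11c+ library 2 and 0.05 without CD11b+ library 2. At least 2-fold, 9 members were higher, where 17.3% of all genes were, and 3 were lower, where 8.68% were. Without one of the CD11b+ libraries, or without CD11c+ library 1, the members called lower numbered 6. Of those called higher, Pfkl, Aldoa, Tpi1 and Pkm lost their calls when a single library was left out.

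At the hexokinase and phosphofructokinase steps 5 of 9 members rose, where 27% of all genes did, and 1 fell, where 25% did. Hk3 had 127 and 140.4 CPM in CD11b+ libraries and 19.4 and 33.2 CPM in CD11c+ libraries (log2 fold change 2.35, SE 0.27, adjusted p = 0.00132). Hk2 had 200.2 and 237 CPM in CD11b+ and 88.4 and 121 CPM in CD11c+ libraries (log2 fold change 1.06, SE 0.18, adjusted p = 0.00443). In both genes library 2 was the higher of its group, in CD11c+ and in CD11b+ cells alike. The same held in CD11b+CD11c+ cells (Hk2 291 and 340.3 CPM, Hk3 142 and 188 CPM). In each subset library 2 also held more macrophage marker RNA than library 1, and a link with these genes was not tested. Pfkfb3 had 122 and 135 CPM in CD11b+ and 34.4 and 49.05 CPM in CD11c+ libraries (log2 fold change 1.63, SE 0.19, adjusted p = 0.00132). Pfkfb4 had 16.5 and 18.3 CPM in CD11b+ and 4.85 and 4.71 CPM in CD11c+ libraries (log2 fold change 1.86, SE 0.20, adjusted p = 0.00105). Pfkp went the other way, with 169.6 and 156 CPM in CD11b+ and 367 and 374 CPM in CD11c+ libraries (log2 fold change -1.18, SE 0.12, adjusted p = 0.000782).

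Of the 8 members of lower glycolysis, 4 rose, where 27% of all genes did, and 2 fell, where 25% did. Those that rose, Eno1 (enolase), Aldoa, Tpi1 and Pkm, did so by log2 fold changes of 0.56, 0.46, 0.35 and 0.33. Pgk1 had 207 and 194 CPM in CD11b+ and 349 and 339 CPM in CD11c+ libraries (log2 fold change -0.78, SE 0.09, adjusted p = 0.00133). Aldoc fell too (log2 fold change -1.06, SE 0.21, adjusted p = 0.00724). Pkm had 726 and 685 CPM in CD11b+ and 539 and 581 CPM in CD11c+ libraries (SE 0.09, adjusted p = 0.0247), a call that was lost when either CD11b+ library or CD11c+ library 1 was left out (adjusted p = 0.138, 0.0814 and 0.0985). Ldha had 319 and 329 CPM in CD11b+ and 473 and 480.4 CPM in CD11c+ libraries (log2 fold change -0.56, SE 0.09, adjusted p = 0.00357). Ldhb, far less abundant, had 6.15 and 7.14 CPM in CD11b+ and 1.97 and 1.99 CPM in CD11c+ libraries (log2 fold change 1.75, SE 0.29, adjusted p = 0.00433).

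Hif1a had 436 and 420.0 CPM in CD11b+ libraries and 150.2 and 146 CPM in CD11c+ libraries, with each pair close together and far from the other (log2 fold change 1.53, SE 0.09, adjusted p = 0.000216). Pgd, the second dehydrogenase of the oxidative pentose phosphate branch, had 165 and 156 CPM in CD11b+ and 55.7 and 65.5 CPM in CD11c+ libraries (log2 fold change 1.41, SE 0.11, adjusted p = 0.000472). G6pdx rose with it (log2 fold change 0.67, SE 0.11, adjusted p = 0.00399), while Tkt and Taldo1, of the non-oxidative branch, did not pass (adjusted p = 0.657 and 0.1).

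Of the 11 pyruvate dehydrogenase and citrate cycle members none rose and 5 fell in CD11b+ cells. Among all genes tested, 27% were called higher and 25% lower. Cs, citrate synthase, had 117 and 105 CPM in CD11b+ and 163 and 177 CPM in CD11c+ libraries (log2 fold change -0.62, SE 0.10, adjusted p = 0.00449). Idh3a, Suclg1, Fh1 and Sucla2 fell, with log2 fold changes of -0.68, -0.42, -0.36 and -0.28, and each of these 4 calls was lost when single libraries were left out (adjusted p up to 0.0934, 0.123, 0.106 and 0.143). The 3 members of the pyruvate dehydrogenase core did not pass. Idh1, the cytosolic NADP-linked isocitrate dehydrogenase, had 40.8 and 38.4 CPM in CD11b+ and 9.97 and 11.3 CPM in CD11c+ libraries (log2 fold change 1.90, SE 0.11, adjusted p = 0.000216). Mdh1 had 96.8 and 91.8 CPM in CD11b+ and 202 and 195 CPM in CD11c+ libraries (log2 fold change -1.07, SE 0.08, adjusted p = 0.000423). Acod1 again changed most, with 191 and 147 CPM in CD11b+ and 5.04 and 6.52 CPM in CD11c+ libraries (log2 fold change 4.88, SE 0.20, adjusted p = 0.00011).

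Cells positive for both integrins were set against the same 2 CD11c+ libraries, so this comparison is not independent of the one above. Of the 40 members, 16 were called higher in CD11b+CD11c+ cells, where 20.4% of all genes tested were, and 7 were called lower, where 22.5% were. The 23 members called in either direction compare with 43% of all genes. The median log2 fold change was 0.15 over the members and -0.09 over all genes tested, and the members' median was 0.24 without CD11b+CD11c+ library 2. At least 2-fold, 8 members were higher, where 11.5% of all genes were, and none was lower, where 7.95% were. Without CD11b+CD11c+ library 2 the members called lower numbered 3. The calls of Hk1, Pfkl, Tpi1, Pkm, Ldha, Cs, Idh2, Idh3a and Suclg1 were lost when a single library was left out.

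Hk2 had 291 and 340.3 CPM in CD11b+CD11c+ libraries and 88.4 and 121 CPM in CD11c+ libraries (log2 fold change 1.59, SE 0.18, adjusted p = 0.00154). Hk3 had 142 and 188 CPM against 19.4 and 33.2 CPM (log2 fold change 2.65, SE 0.28, adjusted p = 0.00124). Pfkfb3 had 153 and 183 CPM in CD11b+CD11c+ cells against 34.4 and 49.05 CPM in CD11c+ cells (log2 fold change 2.01, SE 0.19, adjusted p = 0.00097). Pfkfb4 had 15.5 and 22.01 CPM against 4.85 and 4.71 CPM (log2 fold change 1.97, SE 0.20, adjusted p = 0.00119). These 4 genes of the first control points lay at least 2-fold above CD11c+ cells. Pfkp was not called, at 384 and 319 CPM in CD11b+CD11c+ and 367 and 374 CPM in CD11c+ libraries (adjusted p = 0.616). None of the 9 members at these steps fell, where 22.5% of all genes were called lower.

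Idh1 had 47.9 and 46.1 CPM in CD11b+CD11c+ and 9.97 and 11.3 CPM in CD11c+ libraries (log2 fold change 2.15, SE 0.11, adjusted p = 0.000232). Ldhb had 4.14 and 6.77 CPM against 1.97 and 1.99 CPM (log2 fold change 1.45, SE 0.29, adjusted p = 0.0105). Ldha had 374 and 345 CPM against 473 and 480.4 CPM (log2 fold change -0.41, SE 0.09, adjusted p = 0.0129). Ldha lost its call without CD11b+CD11c+ library 2 (adjusted p = 0.12). Pgd had 129.9 and 143 CPM in CD11b+CD11c+ and 55.7 and 65.5 CPM in CD11c+ libraries (log2 fold change 1.17, SE 0.11, adjusted p = 0.00101). G6pdx rose while Taldo1 fell (log2 fold changes 0.91 and -0.57, adjusted p = 0.00181 and 0.00529). Hif1a had 277 and 295 CPM in CD11b+CD11c+ and 150.2 and 146 CPM in CD11c+ libraries (log2 fold change 0.95, SE 0.09, adjusted p = 0.000879). Acod1 had 63.5 and 57.6 CPM in CD11b+CD11c+ and 5.04 and 6.52 CPM in CD11c+ libraries (log2 fold change 3.40, SE 0.19, adjusted p = 0.000259). Among all genes tested, 20.4% were called higher and 22.5% lower. Of the 11 pyruvate dehydrogenase and citrate cycle members, Idh2 rose and Cs, Idh3a and Suclg1 fell, by log2 fold changes between -0.62 and 0.57. Among the others, Mdh1 and Pgk1 fell (log2 fold changes -0.83 and -0.58), and Eno1, Hk1, Pfkl, Tpi1 and Pkm rose by 0.28 to 0.66 on the log2 scale. Pkm, at 674 and 687 against 539 and 581 CPM, was close to the threshold (adjusted p = 0.0495) and lost its call when any 1 library of the 2 groups was left out.

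Between CD11b+CD11c+ and CD11b+ cells few genes were called, among the 40 members as among all genes tested. Of the 40 members, 3 were called higher in CD11b+CD11c+ cells, where 3.79% of all genes tested were, and 2 were called lower, where 5.84% were. The 5 members called in either direction compare with 9.63% of all genes. At least 2-fold, 2 members were higher, where 1.28% of all genes were, and 1 was lower, where 4.51% were. The median log2 fold change was 0.11 over the members and 0.01 over all genes tested, and the members' median was 0.22 without CD11b+CD11c+ library 2 and 0.20 without CD11b+ library 2. Acod1 had 63.5 and 57.6 CPM in CD11b+CD11c+ and 191 and 147 CPM in CD11b+ libraries (log2 fold change -1.48, SE 0.17, adjusted p = 0.00531). Hif1a had 277 and 295 CPM in CD11b+CD11c+ and 436 and 420.0 CPM in CD11b+ libraries (log2 fold change -0.58, SE 0.09, adjusted p = 0.0116). Both were thus lowest in CD11c+ cells, intermediate in CD11b+CD11c+ cells and highest in CD11b+ cells, with no overlap between libraries of different subsets.

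Pfkp was higher in CD11b+CD11c+ cells, at 384 and 319 CPM against 169.6 and 156 CPM in CD11b+ cells (log2 fold change 1.11, SE 0.12, adjusted p = 0.0042). Aldoc had 14.1 and 15.2 CPM in CD11b+CD11c+ and 5.54 and 8.05 CPM in CD11b+ libraries (log2 fold change 1.10, SE 0.21, adjusted p = 0.0254). Fh1, fumarase, had 67.9 and 62.4 CPM in CD11b+CD11c+ and 48.4 and 43.5 CPM in CD11b+ libraries (log2 fold change 0.51, SE 0.10, adjusted p = 0.0285). With CD11b+ library 1 left out, no member was called higher, and Acod1 was the 1 member called lower. The Hif1a call was lost whichever of the 4 libraries was left out, and the calls of Aldoc and Fh1 were lost without 3 of the 4. Hk2, at 291 and 340.3 CPM in CD11b+CD11c+ and 200.2 and 237 CPM in CD11b+ libraries, did not overlap between the groups but was not called (adjusted p = 0.124). It was called with the replicate number as a block, with DESeq2, with no count filter and in 1 fit over all libraries (adjusted p = 0.0257, 0.0393, 0.0317 and 0.0467). Hk3, Pfkfb3, Ldha, Ldhb and Pkm were not called either (adjusted p = 0.515, 0.25, 0.342, 0.563 and 0.771).

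**Figure D2:**
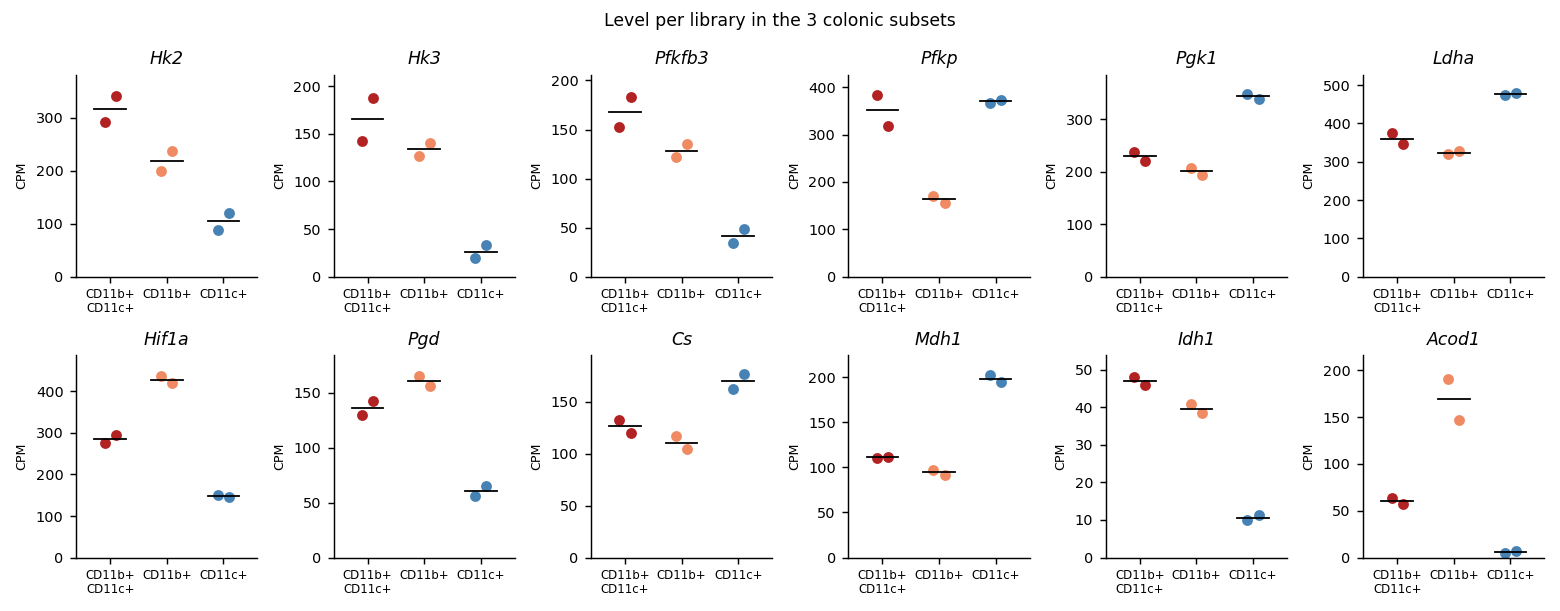
Level of 12 members in each library of the colonic CD11b+CD11c+, CD11b+ and CD11c+ subsets, in CPM on axes that start at 0. Points are libraries and bars are means of 2. Hk2, Hk3, Pfkfb3, Pgd and Idh1 are lowest in CD11c+ cells, Ldha, Pgk1, Cs and Mdh1 are highest there, Pfkp is lowest in CD11b+ cells, and Hif1a and Acod1 step down in the order CD11b+, CD11b+CD11c+, CD11c+.

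**Figure D3:**
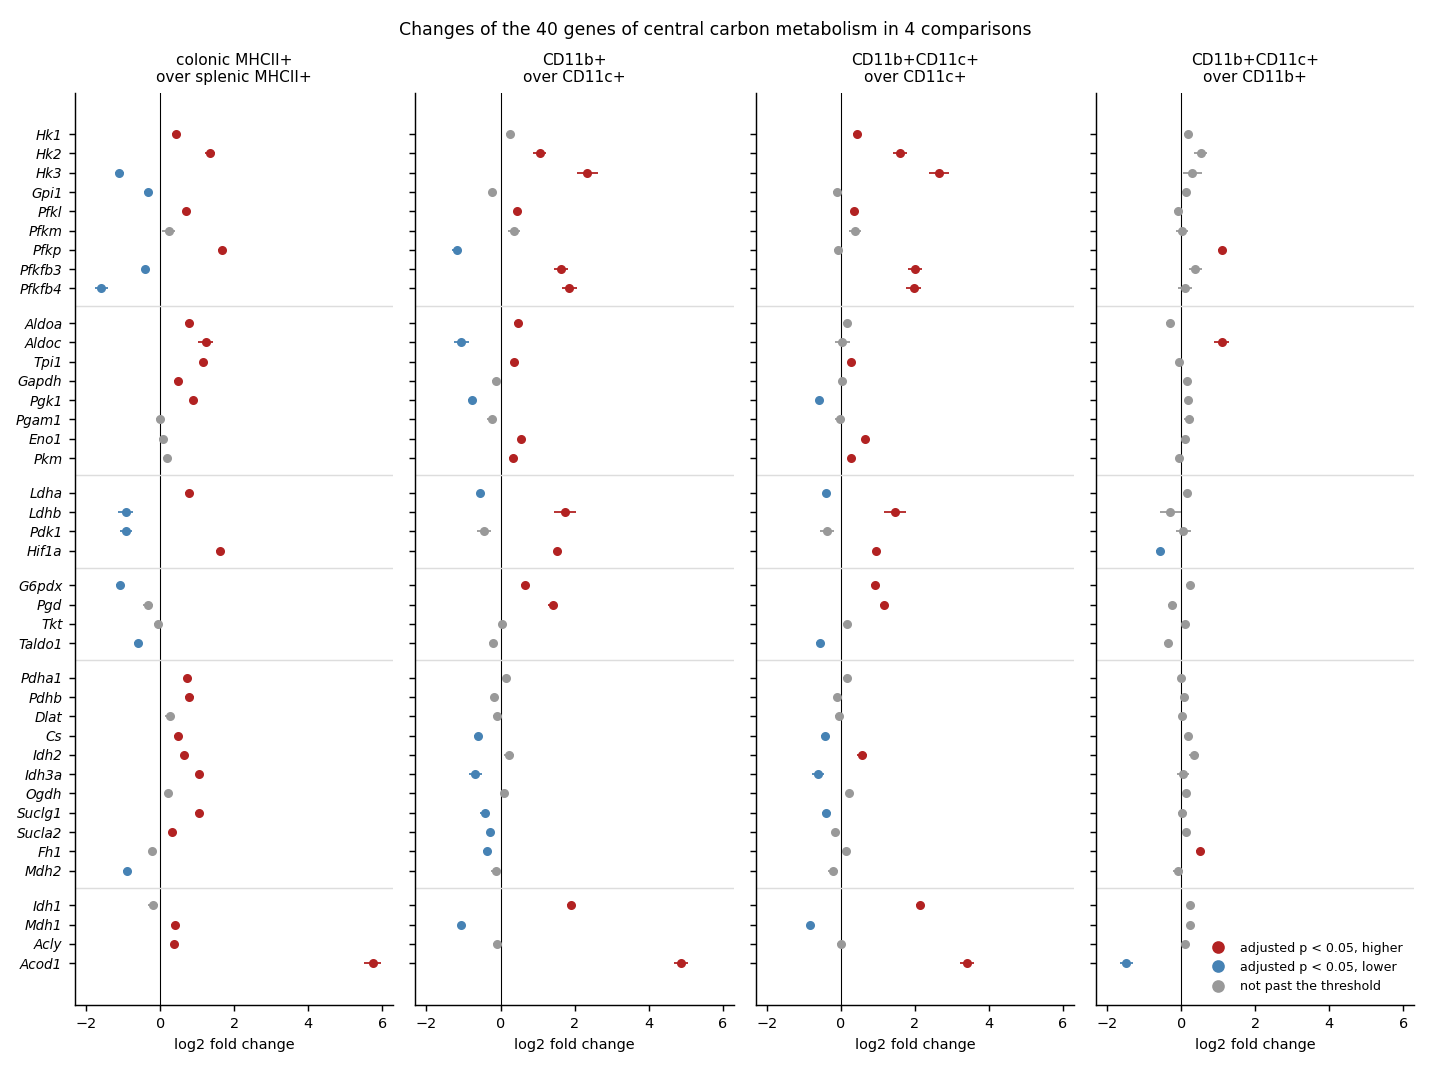
Log2 fold change of each of the 40 members in the 4 comparisons, with the first-named group over the second. Bars are standard errors, members are grouped by role from hexokinase (top) to itaconate (bottom), red and blue mark members called higher and lower, and grey marks members past no threshold. Acod1 stands farthest to the right in the first 3 panels at 5.73, 4.88 and 3.40, and farthest to the left in the last at -1.48.

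In the pathway lists, Slc16a3, the lactate and pyruvate exporter MCT4, changed most among the called of 21 further glycolytic and transport genes in all 3 subset comparisons. It had 65.8 and 60.4 CPM in CD11b+CD11c+ libraries, 164 and 142 CPM in CD11b+ libraries and 14.5 and 13.2 CPM in CD11c+ libraries. The log2 fold changes were 3.47 for CD11b+ over CD11c+ (SE 0.12, adjusted p = 0.00011), 2.19 for CD11b+CD11c+ over CD11c+ (SE 0.12, adjusted p = 0.000242) and -1.28 for CD11b+CD11c+ over CD11b+ (SE 0.11, adjusted p = 0.00254). In all, 8 of the 21 rose and 2 fell in CD11b+ over CD11c+ cells, 6 rose and 4 fell in CD11b+CD11c+ over CD11c+ cells, and 1 rose and 2 fell in CD11b+CD11c+ over CD11b+ cells. In the same order of comparisons, 27, 20.4 and 3.79% of all genes were called higher and 25, 22.5 and 5.84% lower. The list's median log2 fold changes were -0.07, 0.04 and -0.08, where those of all genes were -0.02, -0.09 and 0.01. Slc2a6, a glucose transporter family member, had 216 and 186 CPM in CD11b+CD11c+, 128 and 119.5 CPM in CD11b+ and 73.7 and 83.9 CPM in CD11c+ libraries, so that it was highest in the doubly positive cells. Slc2a3, the glucose transporter GLUT3, was lower in CD11b+CD11c+ than in CD11b+ cells (28.8 and 32.7 against 44.1 and 46.3 CPM, adjusted p = 0.0285).

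Of 26 further pyruvate and citrate cycle genes, 3 rose and 7 fell in CD11b+ over CD11c+ cells, 3 rose and 4 fell in CD11b+CD11c+ over CD11c+ cells, and 1 rose in CD11b+CD11c+ over CD11b+ cells (median log2 fold changes -0.11, -0.04 and 0.11). The counts in this paragraph stand against 27, 20.4 and 3.79% of all genes called higher and 25, 22.5 and 5.84% called lower. The medians stand against -0.02, -0.09 and 0.01 over all genes. Me2, a mitochondrial malic enzyme, had 57.3 and 43.8 CPM in CD11b+CD11c+, 37.5 and 35.9 CPM in CD11b+ and 114 and 94.2 CPM in CD11c+ libraries. Mpc1, a subunit of the mitochondrial pyruvate carrier, was lower in CD11b+ than in CD11c+ cells (37.8 and 39.01 against 62.1 and 64.5 CPM, adjusted p = 0.00204) and higher in CD11b+CD11c+ than in CD11b+ cells (60.1 and 53.7 CPM in CD11b+CD11c+ cells, adjusted p = 0.0183). Of 8 further pentose phosphate genes, 1 rose and 4 fell, 1 rose and 2 fell, and none was called in these 3 comparisons in turn (medians -0.41, -0.25 and 0.03). H6pd, the hexose 6-phosphate dehydrogenase of the endoplasmic reticulum, was the one that rose over CD11c+ cells in both. Of 19 HIF axis genes, 6 rose and 2 fell, 6 rose and 4 fell, and 1 rose and 1 fell (medians 0.28, 0.13 and 0.01). Vegfa had 106 and 165 CPM in CD11b+CD11c+, 131 and 180.2 CPM in CD11b+ and 40.9 and 67.4 CPM in CD11c+ libraries, and Vhl, which targets HIF subunits for degradation, was lower in both CD11b-expressing subsets than in CD11c+ cells (log2 fold changes -1.03 and -1.14 for CD11b+CD11c+ and CD11b+ cells).

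The markers of cell types moved with the subsets as well. Macrophage markers summed to 15591 and 22188 CPM in CD11b+CD11c+, 15203 and 19096 CPM in CD11b+ and 475 and 3509 CPM in CD11c+ libraries, and 9 of 10 rose over CD11c+ cells in either subset. Conventional dendritic cell markers summed to 661 and 424 CPM, 247 and 240.3 CPM, and 2375 and 2316 CPM in the same order. CD11b+ libraries also held more neutrophil marker RNA (394 and 360.4 CPM, against 28.8 and 30.3 CPM in CD11b+CD11c+ and 0.682 and 0.965 CPM in CD11c+ libraries), eosinophil marker RNA (439 and 406 CPM, against 43.1 and 61.7 CPM and 12.3 and 18.4 CPM) and stromal marker RNA (3934 and 3528 CPM, against 759 and 629 CPM and 1131 and 1306 CPM). T cell markers summed to 63.3 and 33.6 CPM in CD11b+CD11c+, 35.8 and 31.4 CPM in CD11b+ and 631 and 244 CPM in CD11c+ libraries. Plasma cell markers summed to 12535 and 9954 CPM, 16209 and 13109 CPM, and 29820.5 and 39704 CPM in the same order. In CD11c+ cells 3 of the 8 neutrophil markers were at 0, among them S100a8. The part of these cells in the results was not tested. Without CD11c+ library 2, the one with more macrophage marker RNA, Acod1 had log2 fold changes of 5.05 and 3.58 and Hk3 of 2.77 and 3.08 in CD11b+ and CD11b+CD11c+ cells over CD11c+ cells.

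Isozymes can be set side by side only per length. For this, counts were divided by the length of the longest coding transcript of each gene and scaled to the same total over all genes in every library. On this scale Hk2 made up 57.4 and 60.8% of hexokinase transcripts in colonic MHCII+ libraries and 32.1 and 31.4% in splenic MHCII+ libraries. Hk3 made up 14.6 and 13.8% in colonic MHCII+ and 40.3 and 42.1% in splenic MHCII+ libraries, where it was the most abundant of the 3. In the subsets, Hk3 held 28.01 and 31.2% in CD11b+CD11c+, 32.0 and 32.0% in CD11b+ and 11.9 and 16.0% in CD11c+ libraries, and Hk2 held more than 50% in all 6.

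Gene sums of the deposited TPM gave larger Hk3 shares. Hk3 had mean shares of 25.01, 68.5, 57.6, 60.8 and 35.4% in colonic MHCII+, splenic MHCII+, CD11b+CD11c+, CD11b+ and CD11c+ cells on the TPM scale, against 14.2, 41.2, 29.6, 32.0 and 13.9% per length of the longest transcript. On both scales the share was lower in colonic than in splenic MHCII+ cells and higher in both CD11b-expressing subsets than in CD11c+ cells, although on the TPM scale the CD11c+ libraries were far apart (SD 16.2%). Which hexokinase was the most abundant in CD11b+CD11c+ and CD11b+ cells differed between the scales, being Hk2 per length of the longest transcript and Hk3 in TPM. In CD11c+ cells the libraries disagreed in TPM. Hk2 led in library 1 (45.3%, with Hk3 at 23.9%) and Hk3 in library 2 (46.9%, with Hk2 at 36.8%).

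Pfkp was the main phosphofructokinase everywhere. Per length of the longest transcript it held 68.3 and 71.3% in colonic MHCII+, 53.6 and 53.1% in splenic MHCII+, 80.7 and 78.5% in CD11b+CD11c+, 64.2 and 62.3% in CD11b+ and 85.1 and 83.3% in CD11c+ libraries. Most of the rest was Pfkl, the liver type, with 30.9 and 32.6% in CD11b+ but 12.8 and 14.2% in CD11c+ libraries. On this scale Aldoc never passed 5.13% of aldolase, nor Ldhb 4.10% of lactate dehydrogenase. Of the summed Idh1, Idh2 and Idh3a transcripts, Idh1 held 24.7 and 22.9% in CD11b+CD11c+ and 23.5 and 24.5% in CD11b+ libraries. In CD11c+ libraries it held 6.89 and 7.80%. Idh3b and Idh3g were not in this sum. In TPM the Idh1 shares were larger, at 46.3 and 43.9%, 38.8 and 47.8%, and 20.3 and 20.3% in the same order. The largest of the 3 in CD11b+CD11c+ and CD11b+ libraries was Idh2 per length. In TPM, Idh1 and Idh2 held 46.3 and 38.9% in CD11b+CD11c+ library 1 but nearly equal shares in library 2 (43.9 and 43.6%). In CD11b+ cells they held 38.8 and 43.3% in library 1 and 47.8 and 37.2% in library 2. On both scales the Idh1 share was lowest in CD11c+ libraries among the subsets. Mdh2 held 55.0 and 55.4% of malate dehydrogenase in colonic MHCII+ and 76.2 and 74.2% in splenic MHCII+ libraries. Summed per length, the 40 members together ranged from 5046 to 6640 over the 10 libraries, out of the same total of 1000000 in each.

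**Figure D4:**
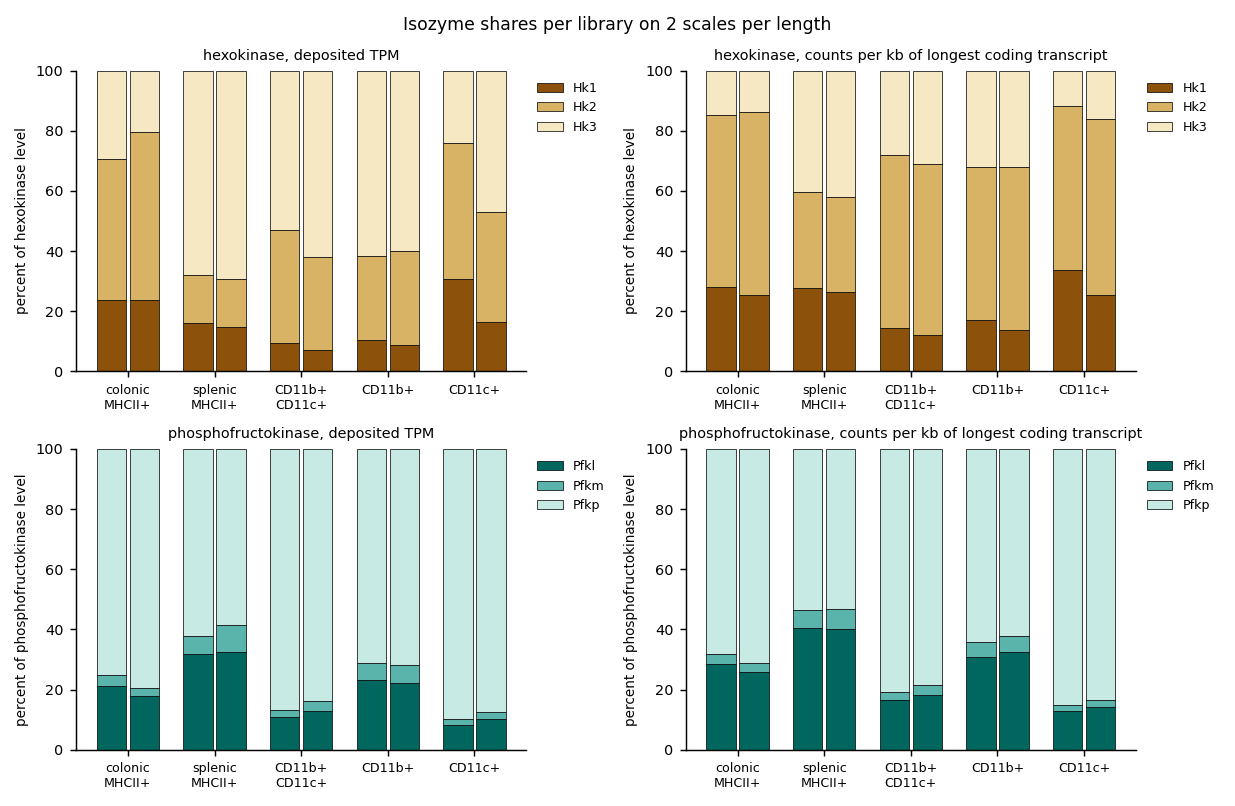
Share of each isozyme in hexokinase (top) and phosphofructokinase (bottom) transcripts per library, in percent, on the deposited TPM scale (left) and per length of the longest coding transcript (right). Each pair of bars is the 2 libraries of a group. Hk3 is a smaller part of the bar in colonic than in splenic MHCII+ cells on both scales, at 25.01% against 68.5% in TPM and 14.2% against 41.2% per length.

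The share of Pkm transcripts with the M1 exon was taken from the estimated counts of the full-length M1 and M2 transcripts, each of 1596 coding bases. It was 11.7 and 10.3% in colonic MHCII+ libraries and 11.4 and 10.6% in splenic MHCII+ libraries, which overlap. In the subsets it was 12.6 and 12.6% in CD11b+CD11c+, 14.3 and 15.4% in CD11b+ and 6.77 and 8.70% in CD11c+ libraries, without overlap between any 2 subsets. With 2 libraries in each group an exact permutation test of such a share cannot go below p = 0.333, so none is given. The M2 form was thus predominant in all 10 libraries. The smallest estimated count behind these shares was 833 for M1, in CD11c+ library 2. Such counts are over the whole transcript, and only reads that reach the M1 or M2 exon tell the forms apart. The 95% Wilson interval of the M1 share was 13.6 to 15.1% and 14.7 to 16.0% in the CD11b+ libraries. In the CD11c+ libraries it was 6.37 to 7.20% and 8.15 to 9.28%. The interval takes every estimated count as a read that tells the forms apart, so it is narrower than the counting error. It also leaves out the spread between samples.

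**Figure D5:**
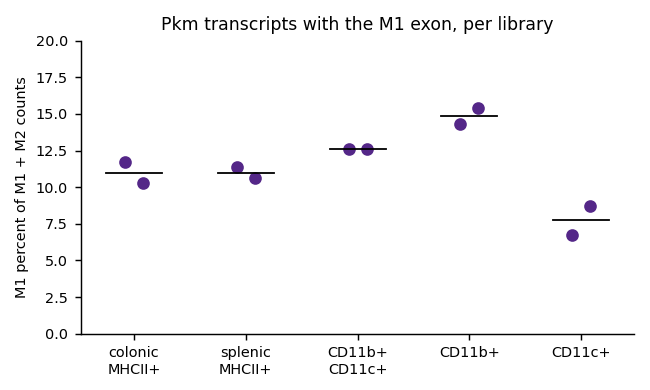
Percent of Pkm M1 and M2 counts that came from the transcript with the M1 exon, for each library of the 5 groups. Points are libraries and bars are means of 2. The CD11b+ libraries lie highest at 14.3 and 15.4% and the CD11c+ libraries lowest at 6.77 and 8.70%.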

How the data were processed

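Polyadenylated RNA was sequenced in 10 libraries. Each has a deposited table of estimated counts and TPM per transcript, computed by kallisto per the file headers. Version 0.44.0 of kallisto, sleuth and the build mm10 stand in the submitters' processing notes. No source used here states the release of the index or its strand option. Because 88.9% of the 66760 deposited lengths are multiples of 3, they are coding lengths, and untranslated regions did not count. The deposited estimated counts and TPM were summed per gene for the 65747 transcripts matched to GENCODE M21, and counts were rounded. Unmatched transcripts held 0.532 to 0.912% of counts. kallisto divides shared reads, so genes with near-identical copies are uncertain. A second gene with the symbol Aldoa, at 1 to 13 counts, was left out.

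The MHCII+ libraries and the 3 subsets were fitted separately with edgeR 4.0.16 in R 4.3.3 (filterByExpr, TMM, quasi-likelihood F test, group as the only term), tested beforehand on simulated data. Alternatives used DESeq2 1.42.0 and limma 3.58.1. Replicates correlated at 0.982 to 0.993 over genes, which are not independent replicates, and their counts differed by more than sampling noise. The Wilson intervals leave out the spread between samples and understate counting error.

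The members and the gene lists were chosen with earlier results of these data known. Named with full values are the up to 8 called members of largest change in each comparison, with Acod1, Hif1a, Hk2, Hk3, Pfkfb3, Ldha, Ldhb and Pkm where named, and up to 3 called genes of each pathway list at 10 CPM or more. One gene that this rule names is not reported here.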

Additional observations from a re-analysis of the deposited data

How the results depend on the processing

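No called member changed direction under another scaling (DESeq2 size factors), DESeq2's Wald test, no count filter, limma on log2(TPM + 1), 1 fit over all 10 libraries, the replicate block or any library left out. Calls held under all of these for 21 of 30 members in colonic over splenic MHCII+ cells, 17 of 25 in CD11b+ over CD11c+, 14 of 23 in CD11b+CD11c+ over CD11c+ and 1 of 5, Acod1, in CD11b+CD11c+ over CD11b+ cells. With limma on TPM the members called lower numbered 6 in CD11b+ and 4 in CD11b+CD11c+ over CD11c+ cells. In CD11b+CD11c+ over CD11b+ cells, DESeq2 called 5 higher and 4 lower, and 1 fit over all libraries called 6 higher. Leaving out 1 library at a time gave 16 to 21 higher and 7 to 10 lower in the MHCII+ comparison, 11 to 16 and 6 to 7 in CD11b+ over CD11c+, 11 to 15 and 3 to 6 in CD11b+CD11c+ over CD11c+, and 0 to 2 and 1 in CD11b+CD11c+ over CD11b+ cells, where the lone sample of a group is assumed to vary like the others. The cause of these changes was not tested. On log2(TPM + 1), where all genes shifted by -0.17 in the MHCII+ comparison, log2 fold changes there were -1.91 for Hk3, -0.94 for Gpi1, -2.17 for Pfkfb4 and 4.71 for Acod1. Leaving out 1 library at a time, all genes called numbered 3757 to 4358 higher and 3328 to 4477 lower in the MHCII+ comparison, 2413 to 3574 and 1959 to 3321 in CD11b+ over CD11c+, 2061 to 2802 and 1129 to 2905 in CD11b+CD11c+ over CD11c+ (1129 without CD11b+CD11c+ library 2) and 39 to 405 and 187 to 366 in CD11b+CD11c+ over CD11b+ cells (39 and 187 without CD11b+ library 1). Under the other settings, counts over all genes that moved by over 1.5 times were 3034 higher (limma; 4768 in edgeR's test) in the MHCII+ comparison, 2166 lower (limma; 3550) in CD11b+ and 1914 lower (limma; 3202) in CD11b+CD11c+ over CD11c+ cells, and in CD11b+CD11c+ over CD11b+ cells 1057 (DESeq2), 1111 (no filter), 1100 (all libraries) and 212 (limma) higher against 539, with 531 (limma) lower against 831. The share of calls that were higher was 42% with limma against 52.5% in the MHCII+ comparison, and in CD11b+CD11c+ over CD11b+ cells 51.8% (DESeq2), 55.8% (no filter), 60.5% (all libraries) and 28.5% (limma) against 39.3%. The scale per length was chosen after seeing the data. It moved the mean Hk3 share of hexokinase to 14.19, 41.2, 29.61, 31.98 and 13.93% in colonic MHCII+, splenic MHCII+, CD11b+CD11c+, CD11b+ and CD11c+ cells, against 25.01, 68.52, 57.58, 60.75 and 35.39% in TPM, and the Pfkp share of phosphofructokinase to 69.8, 53.33, 79.59, 63.24 and 84.2%, against 77.44, 60.29, 85.28, 71.39 and 88.59%. Short transcripts with few counts weigh heavily in TPM sums, as in Pkm, where 66 to 128 counts held 25.6 to 39.8% of the TPM of a subset library. Deviations of same-numbered libraries correlated over genes at 0.258 for CD11b+CD11c+ with CD11c+, -0.0642 for CD11b+ with CD11c+ and -0.0117 for CD11b+CD11c+ with CD11b+ cells. Whether the numbers pair the samples is not settled by these values, and the main fit did not pair them. With the replicate block the members called were 15 higher and 10 lower, 16 and 7, and 4 and 2 in the 3 subset comparisons, Hk2 being added in the last. No paired analysis was possible for the MHCII+ libraries because both splenic titles carry the same number. The members' median moved by over 1.5 times with limma, to 0.16 in the MHCII+ comparison, 0.16 in CD11b+ over CD11c+ and 0.03 in CD11b+CD11c+ over CD11b+ cells, with no filter to 0.03 and 0.20 in these 2 subset comparisons, and in 1 fit over all libraries to 0.24 in CD11b+CD11c+ over CD11c+ and 0.19 in CD11b+CD11c+ over CD11b+ cells. Depth limits genes of few counts, such as Ldhb at 1.97 and 1.99 CPM in CD11c+ libraries.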
